A study of Rattus norvegicus with 9 samples.

Results

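Gstp1, Mgst2, Glrx and Txnip are 4 genes of the glutathione and thioredoxin systems, 4 genes in a study whose count table holds 32662. They were chosen by name from the authors' tables of VPA against control, so the values of that comparison chose them and are given below as a description with no test. Gstp1, Mgst2 and Glrx carry an Ensembl identifier in those tables and were followed through the counts of all 9 libraries. Txnip has a name and no identifier in the authors' Cufflinks table, so its only values are 1 FPKM, a level scaled for transcript length and depth, for VPA and 1 for control. All 3 genes with an identifier were among the 12719 genes with enough counts to be tested.

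RNA came from RN46A cells, an immortalised rat raphe line described as serotonergic, in 3 groups of 3 libraries. The first group received 0.5 mM sodium valproate (VPA) and the second 0.5 mM lithium, each for 72 h, and the third was the control. All groups had been grown at 33 °C in 5% serum and then differentiated for 72 h at 39 °C in 1% serum. Libraries held 9580591 to 13030300 assigned reads, and the labels do not say whether replicate libraries came from separate cultures. The p-values below therefore rest on a spread that may be only technical. As a single line, RN46A stands for neither a tissue nor a mixed culture. In bulk RNA, fewer cells of a type and less RNA per cell cannot be told apart. Of 10 serotonergic markers only Maob could be matched by name, so the labelled cell type could not be checked on the others, such as Tph2. Maob was at 5.46 to 8.43 CPM with VPA, 0.693 to 1.21 CPM with lithium and 0.868 to 1.45 CPM in control (counts scaled to library size). Only genes in the authors' tables of differences between these groups carry names, so the matched markers were selected for differing and their differences are no independent evidence. The summed level of 6 of 8 neuronal markers was 81.4 to 89.4 CPM with VPA, 17.1 to 22.0 CPM with lithium and 13.97 to 24.8 CPM in control. That of 6 of 8 fibroblast or mesenchymal markers was 1671 to 2372 CPM with VPA, 4259 to 6113 CPM with lithium and 6494 to 9660 CPM in control, and of these Lum was at 0 in all VPA libraries. That of 3 of 7 glial and Schwann cell markers was 29.96 to 31.9 CPM with VPA, 10.6 to 12.5 CPM with lithium and 7.49 to 11.6 CPM in control. Most of the last sum was Erbb3, and S100b in it went the other way, at a mean of 1.63 CPM with VPA, 3.78 CPM with lithium and 3.99 CPM in control. Their part in the results below was not tested.

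Glutathione is the main small thiol of the cell. Transferases join it to electrophiles, glutathione peroxidases spend it to reduce peroxides, and glutaredoxins use it to release glutathione from protein cysteines. The thioredoxin system runs in parallel: thioredoxin reductases pass electrons from NADPH to thioredoxin, which reduces protein disulfides and supplies peroxiredoxins. Gstp1 is the cytosolic pi-class transferase, Mgst2 a membrane-bound transferase and peroxidase of the microsomal family that can also make leukotriene C4, and Glrx the cytosolic glutaredoxin. Txnip binds and inhibits thioredoxin and, as an alpha-arrestin, also limits glucose uptake.

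The promoters of Gstp1 and Glrx are shown because no other member had a promoter sequence. Mgst2 and Txnip, the members with lower values under VPA, could not be searched, so no motif can be compared between higher and lower members. Both windows hold the 7-letter motif TGANTCA, bound by AP-1 and related factors and the core of the longer element that NF-E2 recognises. RefSeq's promoter table (GRCr8) has entries for these 2 of the 4 members, each running from 250 bases before to 50 after the start that the table uses, from which positions are counted. That start is not the outer end of the gene record, which runs from 210767237 to 210770242 for Gstp1, so that its whole window lies inside the record, and from 7073737 to 7083548 for Glrx. Capitals mark the motif, which lies at positions -61 to -55 in Gstp1 (chr1:210769656-210769955, minus strand) and -151 to -145 in Glrx (chr2:7073545-7073844, plus strand).
Gstp1: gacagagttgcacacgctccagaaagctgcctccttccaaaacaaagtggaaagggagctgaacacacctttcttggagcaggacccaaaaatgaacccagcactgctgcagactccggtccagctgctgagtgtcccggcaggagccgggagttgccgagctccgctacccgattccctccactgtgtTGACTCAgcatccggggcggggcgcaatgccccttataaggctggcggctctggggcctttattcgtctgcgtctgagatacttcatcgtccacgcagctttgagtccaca
Glrx: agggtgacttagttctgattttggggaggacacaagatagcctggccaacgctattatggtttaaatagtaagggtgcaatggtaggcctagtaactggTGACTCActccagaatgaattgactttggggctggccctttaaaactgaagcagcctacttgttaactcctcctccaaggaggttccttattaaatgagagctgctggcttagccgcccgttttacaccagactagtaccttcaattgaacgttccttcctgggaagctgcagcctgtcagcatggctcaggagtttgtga
The motif reads the same on both strands. It occurs in 2453 of 33469 promoters of this length, or 7.33%. The antioxidant-response core TGACNNNGC, searched on both strands, matched Gstp1 at the same place, where it overlaps TGANTCA, and had no match in the Glrx window; 12.1% of promoters hold it. The GC box GGGCGG occurs once in each, on the plus strand in Gstp1 and on the minus strand in Glrx, against 33.1% of promoters. CCAAT and the E-box CACGTG, found in 37.5% and 6.42% of promoters on either strand, had no match in these windows. These matches describe the letters and say nothing of binding.

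Gstp1 (ENSRNOG00000018237; chromosome 1 from 219291678 to 219294147 in the authors' deposited Cufflinks table, of which the sources used here name no build) was about 2-fold higher with VPA. Its level was 1052, 1749 and 1509 CPM in VPA 1, 2 and 3, against 819, 548 and 589 CPM in lithium 1, 2 and 3 and 588, 807 and 565 CPM in control 1, 2 and 3. Every VPA library was above every other library, and lithium and control overlapped. Group means were 1437 ± 354 CPM with VPA, 652 ± 146 CPM with lithium and 654 ± 133 CPM in control (SD, n = 3 each). The log2 fold change of VPA against control in the edgeR fit was 1.14 ± 0.25 (SE), a fold of 2.198, and that of VPA against lithium was 1.14 ± 0.25. The pooled spread between libraries of a group was 0.33 on the log2 scale, so the VPA difference was 3.50 times that spread. VPA 1 was the lowest of its group, and same-numbered libraries gave VPA over control ratios of 1.79, 2.17 and 2.67. RefSeq names a close relative, Gstp3, and 4 Gstp pseudogenes. Whether reads were shared with such copies was not measured, so the level is uncertain to that extent.

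Mgst2 (ENSRNOG00000061857; chromosome 2 from 140708396 to 140729388 in the authors' deposited Cufflinks table) was lower with VPA. Its level was 181, 284 and 214 CPM in VPA 1, 2 and 3, against 509, 336 and 373 CPM in lithium 1, 2 and 3 and 459, 625 and 436 CPM in control 1, 2 and 3. Every VPA library was below every other library, with lithium between VPA and control in the mean and overlapping control. The means were 226 ± 52.5 CPM with VPA, 406 ± 91.2 CPM with lithium and 507 ± 103 CPM in control (SD, n = 3 each). The log2 fold change was -1.16 ± 0.23 (SE) for VPA against control, a fold of 0.447, and -0.84 ± 0.23 for VPA against lithium. Same-numbered VPA over control ratios were 0.395, 0.454 and 0.491.

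The absolute level of Mgst2 differed between deposited tables. The authors' deposited DESeq2 table gives Mgst2 a mean normalized count of 5746, which is 1.44 times the 3995 computed here from the count table over the VPA and control libraries. Over 825 listed genes with a deposited mean of 50 or more, the median of this ratio was 1.05 and its 95th percentile 1.12. Gstp1 and Glrx stood at 1.02 and 1.03. The cause for Mgst2 was not tested, and the deposited log2 change of -1.1 for Mgst2 lies close to the one from the counts.

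Glrx (ENSRNOG00000012183; chromosome 2 from 2605983 to 2615950 in the authors' deposited Cufflinks table) was about 2-fold higher with VPA at a much lower read count. It had 408, 396 and 565 counts in VPA 1, 2 and 3, against 250, 206 and 301 in lithium 1, 2 and 3 and 182, 196 and 226 in control 1, 2 and 3. In CPM that was 31.8, 42.4 and 45.4 with VPA, 21.5, 18.1 and 23.2 with lithium and 16.5, 21.3 and 20.1 in control. The VPA libraries were again above all others, and lithium and control overlapped. The means were 39.9 ± 7.12 CPM with VPA, 20.9 ± 2.61 CPM with lithium and 19.3 ± 2.48 CPM in control (SD, n = 3 each). The log2 fold change was 1.05 ± 0.20 (SE) for VPA against control and 0.93 ± 0.19 for VPA against lithium. Glrx had the smallest spread of the 3 genes, 0.22 on the log2 scale, and ratios of 1.93, 1.99 and 2.26 between same-numbered VPA and control libraries. RefSeq names 9 Glrx pseudogenes, for which the same holds.

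**Figure D1:**
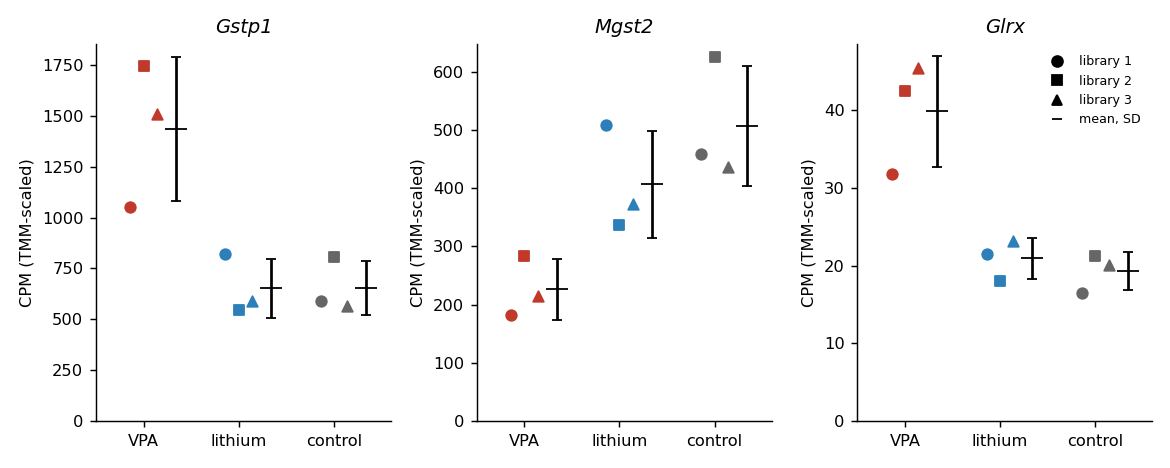
Levels of Gstp1, Mgst2 and Glrx in TMM-scaled CPM (y axis, from 0) in each library of the VPA, lithium and control groups (x axis); symbols give the library number, and the bar beside each group its mean and SD (n = 3). VPA libraries lie above all others for Gstp1 (1052 to 1749 CPM) and Glrx (31.8 to 45.4 CPM) and below all others for Mgst2 (181 to 284 CPM).

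For all 3 genes the VPA and control libraries did not overlap, which held for 25.5% of all tested genes (14.1% higher with VPA, 11.4% lower). VPA and lithium libraries did not overlap for them either, as for 29.2% of all tested genes (15.8% higher, 13.5% lower). Nothing is read from these counts, since the VPA libraries chose the genes. In the authors' deposited DESeq2 table, which lists 1212 genes up to an adjusted p of 0.05, the values that chose them were adjusted p = 0.0004 for Gstp1, 3.3e-05 for Mgst2 and 0.001 for Glrx, at places 353, 230 and 434 by p. Txnip is not listed there. It is listed, at q = 0.00157, among the 1097 genes of the authors' deposited Cufflinks table.

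Txnip, the thioredoxin inhibitor (chromosome 2 from 198683077 to 198687000 in the authors' deposited Cufflinks table), had the largest log2 difference of the 4 in that deposited table. It stands there at 170 FPKM with VPA and 520 FPKM in control, a log2 ratio of -1.61. The table holds 1 value a group and none for lithium, so the spread between libraries is not known. Arrdc4, a second alpha-arrestin named here after its values were seen, is listed in the same deposited table at 1.12 FPKM with VPA and 4.10 FPKM in control, a log2 ratio of -1.87.

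Levels can be set side by side only per length, as the FPKM are. In control the authors' deposited Cufflinks table has Mgst2 at 2657 FPKM, Gstp1 at 921 FPKM, Txnip at 520 FPKM and Glrx at 15.9 FPKM. With VPA it has Gstp1 at 1957 FPKM, Mgst2 at 1088 FPKM, Txnip at 170 FPKM and Glrx at 31.6 FPKM. The order of the transferases is thus reversed in FPKM, with Gstp1 over Mgst2 at 1.799 with VPA and 0.347 in control. Txnip over Glrx is 5.39 with VPA and 32.7 in control. Among the 1097 listed genes, ranked by FPKM, Mgst2 is 5th with VPA and 4th in control, and Gstp1 3rd with VPA and 6th in control. The FPKM of Mgst2 is high for its reads. It had 0.191 CPM per FPKM in control, and only 1 of 300 genes compared had less, against a median of 2.27, with Gstp1 at 0.710 and Glrx at 1.21. In control, Mgst2 was above Gstp1 in FPKM and below it in counts, and the cause of the low CPM per FPKM of Mgst2 was not tested.

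**Figure D2:**
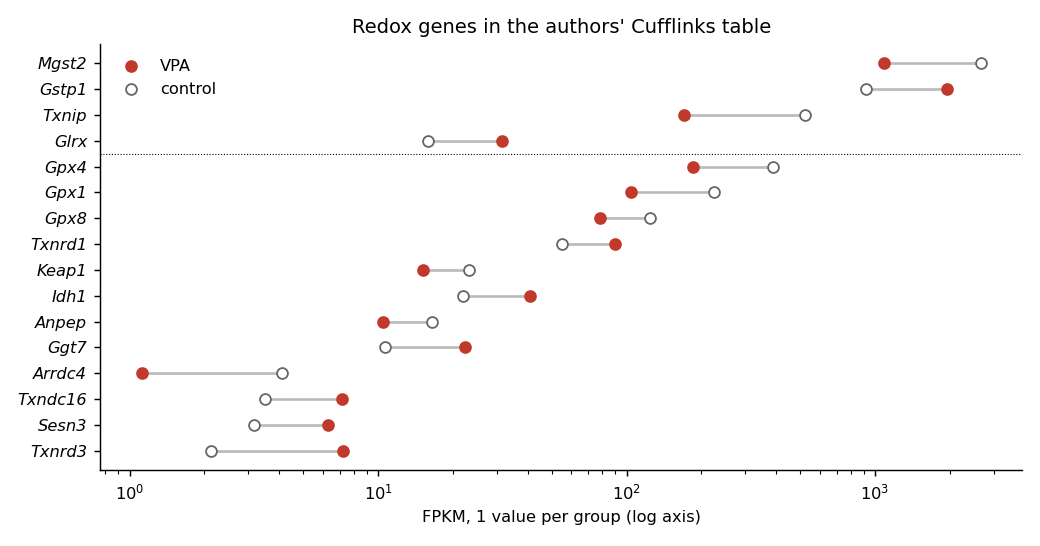
FPKM (x axis, log scale) with VPA (filled) and in control (open) for the 4 members, above the dotted line, and for the other listed redox genes in the authors' Cufflinks table, below it; each group has 1 value and no error. Txnip and Arrdc4 have lower VPA values, and Mgst2 and Gstp1 exchange places between the groups in FPKM. In counts Gstp1 was above Mgst2 in every library of both groups.

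For Gstp1, Mgst2 and Glrx, other tables of the authors gave VPA differences of like size. Txnip is listed in the authors' deposited Cufflinks table alone. The other tables list only what passed their thresholds, so they give no value for it. The authors' deposited Salmon and sleuth table, whose effects are on a natural log scale and were converted here, lists 1 transcript each at 1.12 ± 0.27 for Gstp1, -1.17 ± 0.23 for Mgst2 and 1.05 ± 0.23 for Glrx (log2 ± SE). The authors' deposited Cufflinks table has 1.09, -1.29 and 0.99 for the same genes. The authors' deposited DESeq2 table has 1.0, -1.1 and 0.9, rounded by the authors. All of these rest on the same VPA and control samples, so they compare processing, not experiments. Leaving out any 1 library moved the edgeR value between 0.97 and 1.32 for Gstp1, -1.36 and -0.99 for Mgst2, and 0.94 and 1.19 for Glrx.

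**Figure D3:**
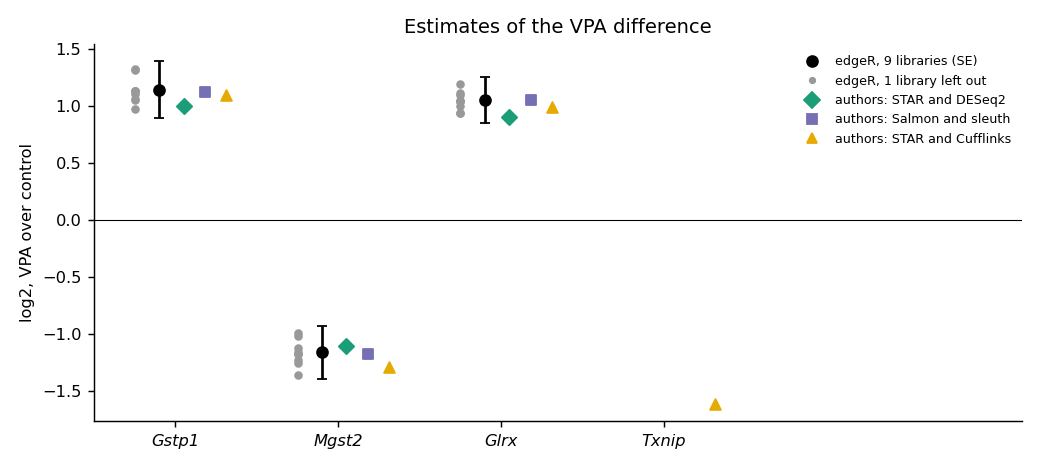
Log2 of VPA over control (y axis) for each member (x axis), from the edgeR fit with its SE, from 9 edgeR fits that each leave out 1 library, and from the authors' 3 tables. Estimates lie between 0.9 and 1.32 for Gstp1 and Glrx and between -1.36 and -0.99 for Mgst2, and Txnip has the Cufflinks value of -1.61 alone.

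Lithium against control did not enter the choice of the genes, though it shares the controls, and was tested. No member passed. The log2 fold change was 0.00 ± 0.25 for Gstp1, -0.32 ± 0.23 for Mgst2 and 0.12 ± 0.20 for Glrx (SE), each with an adjusted p of 1 by the quasi-likelihood test of edgeR; unadjusted edgeR p-values were 0.99, 0.194 and 0.555. Approximate 95% intervals, from the SE and 6 residual degrees of freedom, ran from -0.61 to 0.60 for Gstp1, -0.88 to 0.25 for Mgst2 and -0.36 to 0.60 for Glrx. The data therefore leave room for a lithium difference of Mgst2 more than halfway to that under VPA. The background was 0% in this comparison. In edgeR 0 of 12719 genes were called, with 116 at an unadjusted p under 0.05, and DESeq2 called 0, with 113 at an unadjusted p under 0.05. Both numbers are below what that threshold gives on average where nothing differs. Whether the lithium test was conservative here, and why these numbers were low, was not tested. A gene that did not pass is weak evidence of no difference. Lithium and control libraries overlapped for all 3 genes, and failed to overlap in 3.28% of tested genes (1.71% higher with lithium, 1.57% lower). Samples of the same number gave lithium over control ratios on both sides of 1 for each gene, from 0.679 to 1.39 for Gstp1, 0.538 to 1.11 for Mgst2 and 0.849 to 1.30 for Glrx. None of the 4 is among the 137 genes of the authors' lithium table.

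The ratio of Gstp1 to Mgst2 counts within a library does not depend on scaling, and it was steadier than either level. It was 5.80, 6.16 and 7.06 in VPA 1, 2 and 3, against 1.61, 1.63 and 1.58 in lithium 1, 2 and 3 and 1.28, 1.29 and 1.30 in control 1, 2 and 3. The 3 groups did not overlap. How often other pairs of genes separate the groups in this way was not computed, and the VPA separation follows from the choice of the genes. Within control and within lithium the libraries differed by no more than counting error, with chi-square values of 0.227 and 1.44 on 2 degrees of freedom, but the VPA libraries differed by more, at 44.3. The exact binomial 95% intervals were 1.24 to 1.33, 1.25 to 1.34 and 1.25 to 1.35 in control 1, 2 and 3, and cover counting error only. In the levels, control 2 and lithium 1 were the highest of their groups for both genes, as was VPA 2, so that library differences shared by the pair dropped out of the ratio. The geometric mean ratio was 1.24 times as high in lithium as in control (log2 difference 0.32; two-sided exact permutation p = 0.1, the smallest that 3 against 3 can give). It was 4.90 times as high with VPA as in control, which describes the contrast that chose the genes. This ratio was picked after its values were seen, and the control libraries entered the choice of the genes. The permutation p-values of lithium against control, here and in the next paragraph, are therefore descriptions and no independent tests.

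Gstp1 and Glrx were both higher by a like factor in the VPA comparison that chose them, so their ratio with VPA was bound to lie near that in control. Their count ratio was 33.0, 41.2 and 33.3 with VPA, 38.0, 30.3 and 25.4 with lithium and 35.6, 37.9 and 28.2 in control, and the groups overlapped. Mgst2 over Glrx was 5.69, 6.70 and 4.71 with VPA, 23.6, 18.6 and 16.1 with lithium and 27.8, 29.4 and 21.7 in control. Lithium and control overlapped in it (two-sided exact permutation p = 0.2), and the VPA libraries lay below both. Each of these 2 ratios varied between libraries of a group by more than counting error, with chi-square values of 10.3 to 24.96 on 2 degrees of freedom.

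**Figure D4:**
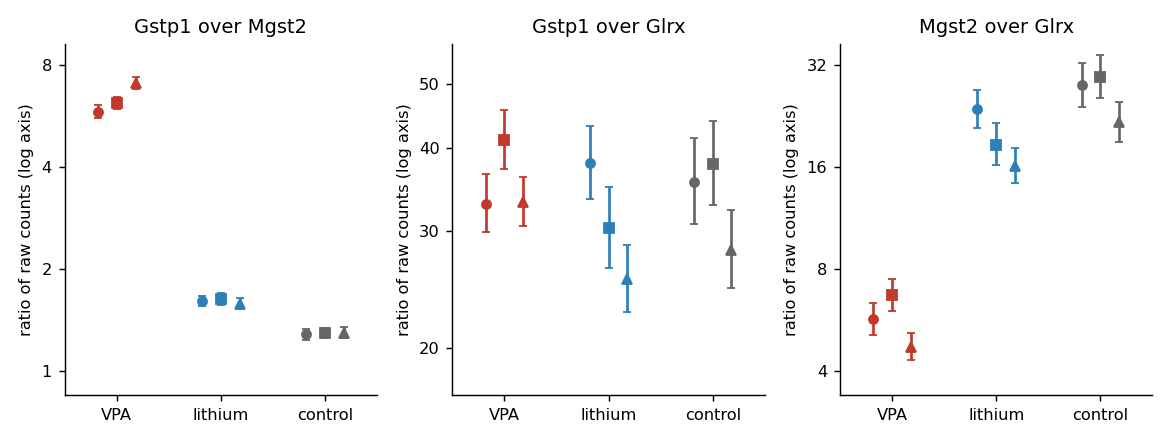
Ratios of raw counts within each library (y axes, log scale) for the 3 pairs of genes, by group (x axis); symbols give the library number (circle 1, square 2, triangle 3) and bars the exact binomial 95% counting interval. Gstp1 over Mgst2, a ratio picked after its values were seen, lies at 5.80 to 7.06 with VPA, 1.58 to 1.63 with lithium and 1.28 to 1.30 in control. Gstp1 over Glrx overlaps between all groups.

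Among 1174 tested genes with a symbol and a mean of 1 CPM or more, likeness of profile was measured as the root mean square difference of centred log2 CPM over the 9 libraries, a description in which all genes share the libraries. Closest to Gstp1 were the nucleotide excision repair gene Xpa (0.146), the metalloprotease inhibitor Timp1 (0.171) and the actin-oxidising monooxygenase Mical1 (0.199), beside 0.213 for Glrx. Closest to Mgst2 were Psme1-ps1 (0.137), the membrane transporter-like Mfsd10 (0.142) and Podnl1 (0.163). Closest to Glrx were the apoptosis repressor Nol3 (0.109), the kinesin Kif19 (0.125) and Nrip3 (0.130). Nol3 stood at 85.9 CPM with VPA, 40.3 CPM with lithium and 40.8 CPM in control. Timp1 stood at 762 CPM with VPA, 315 CPM with lithium and 361 CPM in control. Names come from the authors' tables of VPA against control and, for 137 listed genes, of lithium against control. Candidates with another profile are therefore few.

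A list of 134 redox genes, 130 of them other than the members, puts these values beside the rest of the pathway. Names were held for few: 12 of the 130 could be tested and 5 more had FPKM only. Because the authors listed genes by their p-values on these samples, the counts are no measure of the pathway. Against control, VPA raised 5 of the 12 and lowered 3, with the other 4 not passing the edgeR test, beside 5.71% of all tested genes that rose and 2.99% that fell (8.7% called in all). The median log2 change of the 12 was 0.39 and that of all tested genes -0.01. Against control, lithium changed 0 of the 12 in edgeR's test, with a median of -0.04 beside 0.00 for all genes. Against lithium, VPA raised 5 of the 12 and lowered 2, beside 5.61% and 2.32% of all tested genes (7.93% called in all). That comparison shares its libraries with the authors' comparisons behind the names. With the replicate number as a block, 1741 genes were called for VPA against control in place of 1106, and 2408 in a blocked fit of these groups alone.

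In the thioredoxin system the reductases moved apart. The genes named here and in the next paragraph carry names only through the authors' tables of differences on these same libraries. Their VPA p-values therefore describe these data and are no independent test. Txnrd3, which also reduces glutathione in its extended form, had 19.9, 27.4 and 20.8 CPM with VPA, against 7.35, 6.51 and 5.60 CPM in control, and rose by 1.8 ± 0.22 (log2 ± SE; adjusted p = 0.00103 in the edgeR fit). The mitochondrial reductase Txnrd2 was at 7.80, 10.9 and 7.39 CPM with VPA, against 15.6, 18.5 and 17.95 CPM in control, a change of -1.0 ± 0.22 (edgeR adjusted p = 0.0154). The groups did not overlap for either. Txnrd2 lost its call without VPA 1 or VPA 3 (edgeR adjusted p = 0.068 and 0.0607). The cytosolic reductase Txnrd1, named after its values were seen, was at 336, 393 and 222 CPM with VPA and 195, 163 and 203 CPM in control. Its change of 0.76 ± 0.22 did not pass (edgeR adjusted p = 0.0543), but passed with the replicate block (0.0438), in a blocked fit of VPA and control alone (0.0366), with DESeq2 (0.0177), with upper-quartile scaling (0.0494) or library totals (0.0458), with no filter (0.0275) and without VPA 3 (0.0189). Txndc16, a thioredoxin-domain protein of the endoplasmic reticulum, rose by 1.12 ± 0.24 (edgeR adjusted p = 0.0155), a call lost without VPA 1 (0.0523).

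Genes of glutathione use and supply also went both ways. Ggt7, of the gamma-glutamyltransferase family, rose by 1.13 ± 0.19 to 48.6 ± 7.16 CPM with VPA, against 22.2 ± 3.09 CPM in control (SD, n = 3; edgeR adjusted p = 0.00379). Oplah, which returns 5-oxoproline to glutamate in the glutathione cycle, changed by -0.96 ± 0.22 (edgeR adjusted p = 0.0186); leaving out VPA 1, VPA 2 or control 3 brought the edgeR adjusted p to 0.0703, 0.0807 and 0.0527 and ended the call. Gpx1, the cytosolic glutathione peroxidase, named after its values were seen, was at 76.8, 79.7 and 77.0 CPM with VPA, against 115, 197 and 155 CPM in control, a change of -1.0 ± 0.24 (edgeR adjusted p = 0.0229). The VPA libraries were nearly equal and the controls spread, and its call was lost without VPA 1, 2 or 3 or control 2 (edgeR adjusted p = 0.077, 0.0725, 0.0717 and 0.0686). The authors' deposited Cufflinks table also lists Gpx4, which reduces lipid peroxides, at 185 FPKM with VPA and 388 FPKM in control, and Gpx8 at 77.9 FPKM with VPA and 124 FPKM in control, both named after their values were seen. Of the NADPH suppliers, the cytosolic isocitrate dehydrogenase Idh1 rose by 0.97 ± 0.19 (edgeR adjusted p = 0.00902). The malic enzyme Me1 rose by 0.57 ± 0.14 (edgeR adjusted p = 0.0271), and lost its call without any 1 VPA library, without control 1 or 2, with no filter or with VPA and control alone (edgeR adjusted p = 0.0734 to 0.0818). The transferase Gstm2, another gene picked on seeing its values, did not pass, with 0.22 ± 0.24.

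**Figure D5:**
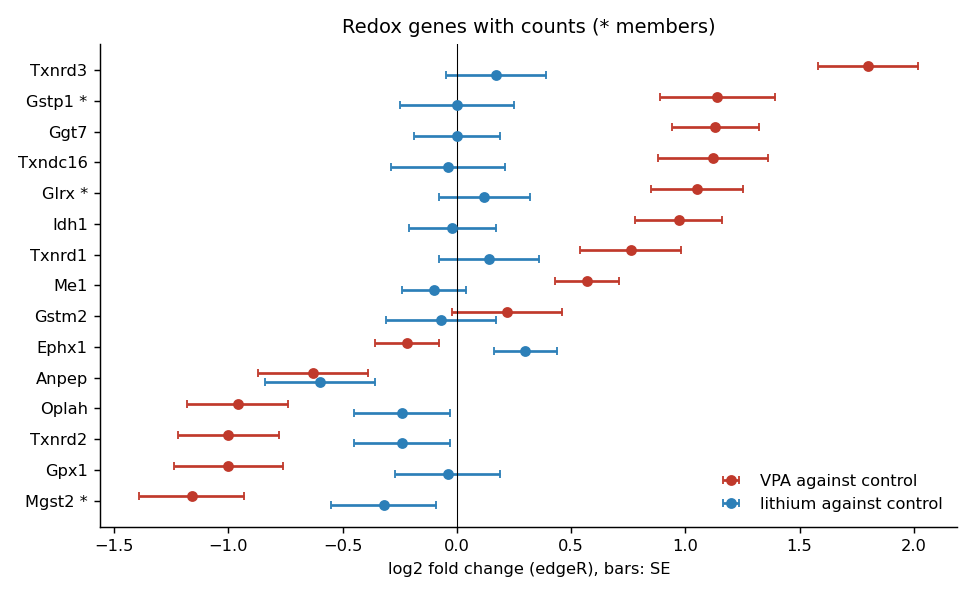
Log2 fold changes (x axis, bars SE) of VPA against control and lithium against control in the edgeR fit for the 3 members with counts, marked with an asterisk, and the 12 other redox genes that could be tested (y axis). VPA values run from -1.16 for Mgst2 to 1.8 for Txnrd3, and lithium values from -0.60 for Anpep to 0.30 for Ephx1.

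With lithium, the lowest unadjusted p-values of the list were those of Anpep, an aminopeptidase that trims cysteinylglycine, and Ephx1, the microsomal epoxide hydrolase. Anpep changed by -0.60 ± 0.24 and Ephx1 by 0.30 ± 0.14 (log2 ± SE), with unadjusted p = 0.0264 and 0.0583 and adjusted p = 1 for both in edgeR's test. Anpep was at 45.2, 48.2 and 40.2 CPM with VPA, 49.4, 41.1 and 45.1 CPM with lithium and 91.1, 42.7 and 72.3 CPM in control, so control 2 lay within the other groups. Its VPA change of -0.63 ± 0.24 did not pass (edgeR adjusted p = 0.137) and passed without control 2 (0.0156). Both names were held only because the authors listed genes by these samples.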

How the data were processed

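Polyadenylated RNA was sequenced without strand information, per the labels. The submitters' processing notes name STAR 2.5.1, Salmon 0.6.1, CASAVA 1.8, sleuth, Cufflinks 2.2.1, kallisto 0.42.4 and DESeq2 without roles. The sources used here give no build or annotation, and reads of overlapping genes on opposite strands cannot be told apart. The authors deposited raw counts per Ensembl gene, 1 FPKM value per group, log2 fold changes with p-values and mean normalized counts (a signal), test scores and transcript effects on a natural log scale, per the file headers. That base was checked by the median ratio of 0.697 between these effects and the Cufflinks log2 values (588 transcripts). Cufflinks ratios were turned to VPA over control. Symbols came from the authors' tables (1384 identifiers); the gene table supplied held 0 Ensembl identifiers.

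Counts were fitted with edgeR 4.0.16 in R 4.3.3 (TMM, filterByExpr with a minimum count of 10, robust quasi-likelihood, group means of all 9 libraries, Benjamini-Hochberg over 12719 genes, called at an adjusted p under 0.05) and tested on simulated data. SE is the log2 fold change over the square root of F. Log2 CPM used a pseudocount of 0.1. Exact tests used SciPy 1.17.1. Alternatives were DESeq2 1.42.0, other scalings and filters, blocked, 2-group and non-robust fits, and leaving out each library. Same-numbered VPA and control libraries, numbered by title, deviated together (correlations 0.598, 0.533 and 0.525 over 10288 genes with 5 CPM or more). The main fit did not use this pairing, and only the blocked fits did. In the blocked fit of VPA and control alone, the SE of the log2 change was 0.16 for Gstp1, 0.13 for Mgst2 and 0.14 for Glrx. Lithium and control deviated together for number 3 alone (-0.417, -0.0817 and 0.800). So did VPA and lithium (-0.177, 0.0524 and 0.538). The members and lists were chosen with earlier results of these data known. The rule for named genes takes the members, up to 6 listed redox genes by unadjusted p in each of the VPA and lithium comparisons, and the 3 closest profiles per member.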

Additional observations from a re-analysis of the deposited data

How the results depend on the processing

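Under 10 other settings and 9 fits without 1 library, no member with counts changed direction with VPA. Each VPA difference moved by less than the spread between libraries. For these genes the VPA libraries overlapped with no others, so leaving out 1 library could hardly change the direction or move a group mean far. Those fits are therefore no support for the VPA differences. Over the 10 settings the VPA against control log2 change was 1.12 to 1.17 for Gstp1, -1.17 to -1.13 for Mgst2 and 1.03 to 1.09 for Glrx; against lithium the fits without 1 library gave 0.98 to 1.35, -1.03 to -0.64 and 0.82 to 1.07. With lithium against control no member was called in any fit run (adjusted p of 0.999 to 1, edgeR or DESeq2), and without 1 library the values ran from -0.22 to 0.16, -0.53 to -0.16 and 0.02 to 0.21. Genes called for VPA against control numbered 1741 with the replicate block, 2408 with the replicate block on these groups alone and 638 to 1026 without 1 library, lowest without VPA 1 (694 without control 1, 698 without VPA 2, 669 without VPA 3). For VPA against lithium they numbered 1609 with the replicate block and 544 to 1197 without 1 library (553 without lithium 1, 544 without lithium 2, 638, 659 and 639 without VPA 1, 2 and 3). Fewer samples enter the last fits; other causes were not tested. Rises among VPA against control calls made up 65.6% of calls, and 75.9% without VPA 1. Of the other redox genes, 3 to 8 were called for VPA against control without 1 library (3 without VPA 1, 5 without VPA 2) and 4 to 7 for VPA against lithium (4 without lithium 1), alternatives for this list that were added after the data were seen. For VPA against control the block changed the call of Txnrd1 and of no other redox gene on the list; for VPA against lithium 9 of the 12 were called with it and 7 without it. The depth of Txnip is unknown, and Glrx rests on 182 to 565 counts a library.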

Other observations

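Against lithium, VPA differed by 1.63 ± 0.22 for Txnrd3 and by -0.52 ± 0.14 for Ephx1 (log2 ± SE). Ephx1 stood at 48.4 ± 2.74 CPM with VPA, 69.6 ± 5.70 CPM with lithium and 56.5 ± 1.02 CPM in control (SD, n = 3 each), so lithium and VPA means lay on either side of control. Neither difference of Ephx1 from control passed the edgeR test (adjusted p = 0.409 for VPA, and unadjusted p = 0.0583 for lithium). In the authors' deposited Cufflinks table, Sesn3, of the sestrin family, is at 6.31 FPKM with VPA and 3.17 FPKM in control, and Keap1, which holds the antioxidant regulator Nrf2 in check, at 15.1 FPKM with VPA and 23.2 FPKM in control; both were named after their values were seen.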
